A study of Homo sapiens with 6 samples.

Results

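The 8 SMAD genes measured in LA1-55n neuroblastoma cells, with the ligand gene BMP4 and the pseudoreceptor gene BAMBI, are described here. The 10 genes were listed by symbol as the receptor-regulated SMADs (SMAD1, SMAD2, SMAD3, SMAD5 and SMAD9), the common SMAD (SMAD4), the inhibitory SMADs (SMAD6 and SMAD7), BMP4 and BAMBI. All 10 were measured, out of 14779 named genes. The probe set of a gene was to be chosen by its mean level over the 6 arrays, taking the brightest, but each of the 10 genes had 1 named probe set, so that this level decided nothing. The list itself was drawn up with earlier results of these data known, so the counts below are not independent evidence of a pathway change.

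LA1-55n is a human neuroblastoma line, a tumour of the sympathetic nervous lineage. It carried a doxycycline-inducible (teton) hairpin against the glycine decarboxylase gene (shGLDC99) in 3 samples and against GFP (shGFP), a jellyfish protein that human cells lack, in the other 3. All 6 samples received 0.5 µg/ml doxycycline for 7 days, so both groups carry an induced hairpin, and a single hairpin sequence against GLDC was used. Total RNA was hybridised to Affymetrix Human Gene 2.0 ST arrays, 1 per sample. The series design text calls the samples independent without saying whether they were separate cultures, so p-values here cover the spread among these 6 samples, which may be technical. In bulk RNA, fewer cells of a type and less RNA per cell cannot be told apart.

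SMAD proteins carry signals from the receptors of the TGF-beta family to the nucleus. Receptors for bone morphogenetic proteins (BMPs) phosphorylate SMAD1, SMAD5 and SMAD9, while receptors for TGF-beta and activin phosphorylate SMAD2 and SMAD3. The phosphorylated proteins join SMAD4 and bind DNA. SMAD6 and SMAD7 block the receptors or the SMADs, and both genes are themselves induced by the pathway as feedback. BMPs are known for their part in specifying sympathetic neurons from the neural crest.

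SMAD6 fell in shGLDC99 cells to 51.3% of its shGFP level, and no shGLDC99 array reached any shGFP array. SMAD7, the other inhibitory SMAD, fell to 73.5% of its shGFP level, close to the threshold. Among the receptor-regulated SMADs, SMAD1 rose 1.31-fold and SMAD9 fell to 81.0%, while SMAD2, SMAD3 and SMAD5 did not pass the test. SMAD4, BMP4 and BAMBI did not pass it either. Of the 10 genes, therefore, 1 rose and 3 fell, and 6 did not pass the test. Over all 14779 genes, 8.52% changed by the same rule, 3.72% as rises and 4.8% as falls. Of the 10 genes, 9 lay at or above the median gene level (5.09), while the share over all genes includes the dim ones. Without the dimmest 40% of genes, 6 of the 10 passed, beside 2221 of the genes kept.

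The promoters of the 4 genes that passed the test are shown because SMAD proteins bind defined DNA elements and SMAD6 and SMAD7 are known targets of the pathway. The sequences are RefSeq windows on GRCh38.p14, from 250 bases before to 50 bases after an annotated start site, written 5′ to 3′ on the gene's own strand. Capitals mark the palindromic SMAD element GTCTAGAC and the shorter element CAGAC, searched on both strands, so that the shorter one also appears as GTCTG. For a gene with several annotated starts, the window with the most such matches is printed.
SMAD6, chr15:66701986-66702285, plus strand: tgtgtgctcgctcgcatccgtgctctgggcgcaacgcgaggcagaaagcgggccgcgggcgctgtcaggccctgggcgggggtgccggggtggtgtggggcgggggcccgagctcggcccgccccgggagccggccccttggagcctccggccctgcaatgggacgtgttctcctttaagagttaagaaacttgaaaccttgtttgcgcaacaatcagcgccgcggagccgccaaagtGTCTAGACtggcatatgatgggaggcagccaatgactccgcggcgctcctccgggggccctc
SMAD7, chr18:48950916-48951215, minus strand: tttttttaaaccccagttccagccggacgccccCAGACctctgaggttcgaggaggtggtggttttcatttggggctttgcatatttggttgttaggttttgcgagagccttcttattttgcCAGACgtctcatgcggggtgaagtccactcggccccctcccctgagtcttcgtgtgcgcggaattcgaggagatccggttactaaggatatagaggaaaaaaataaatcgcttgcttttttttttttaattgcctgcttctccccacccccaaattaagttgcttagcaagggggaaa
SMAD1, chr4:145482084-145482383, plus strand: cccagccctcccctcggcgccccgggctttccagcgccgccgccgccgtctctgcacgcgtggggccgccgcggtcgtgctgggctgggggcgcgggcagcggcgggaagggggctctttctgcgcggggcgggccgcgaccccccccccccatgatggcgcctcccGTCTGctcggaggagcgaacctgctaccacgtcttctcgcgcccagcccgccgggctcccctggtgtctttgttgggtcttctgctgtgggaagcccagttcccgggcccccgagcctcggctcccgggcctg
SMAD9, chr13:36920189-36920488, minus strand: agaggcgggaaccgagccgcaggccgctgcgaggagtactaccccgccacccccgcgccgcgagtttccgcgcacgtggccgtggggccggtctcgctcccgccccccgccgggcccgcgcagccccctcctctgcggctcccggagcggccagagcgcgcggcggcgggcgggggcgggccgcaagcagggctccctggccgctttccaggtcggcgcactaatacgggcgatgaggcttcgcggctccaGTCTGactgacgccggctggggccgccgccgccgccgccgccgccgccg

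All 10 genes had at least 1 window in the RefSeq table, and together they had 23. The palindrome GTCTAGAC was present in 1 of these windows, that of SMAD6, where it lay 12 to 5 bases before the annotated start. It occurred in 71 of all 35116 windows in the table, or 0.202%. Sequence outside the windows was not searched, so a gene without the palindrome here may still hold it elsewhere. CAGAC was present in 11 of the 23 windows, or 47.8%, against 45.3% of all windows. The 2 matches in the printed SMAD7 window began 217 and 128 bases before the start, and neither SMAD6 nor SMAD2, SMAD4 or SMAD5 had one. The GC-rich element GGCGC, counted on both strands with overlapping matches kept, occurred in 16 of the 23 windows, or 69.6%, against 48.6% of all windows. SMAD6 had 4 such matches and SMAD7 had none in its 3 windows. Windows of the 10 genes with a GGCGC match were 49.3% to 84% G or C, and those without were 42% to 57%. All windows were not compared at like G and C content, and some windows of SMAD1 and of SMAD2 overlap. These matches describe letters in the reference sequence and not binding in these cells.

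**Figure D1:**
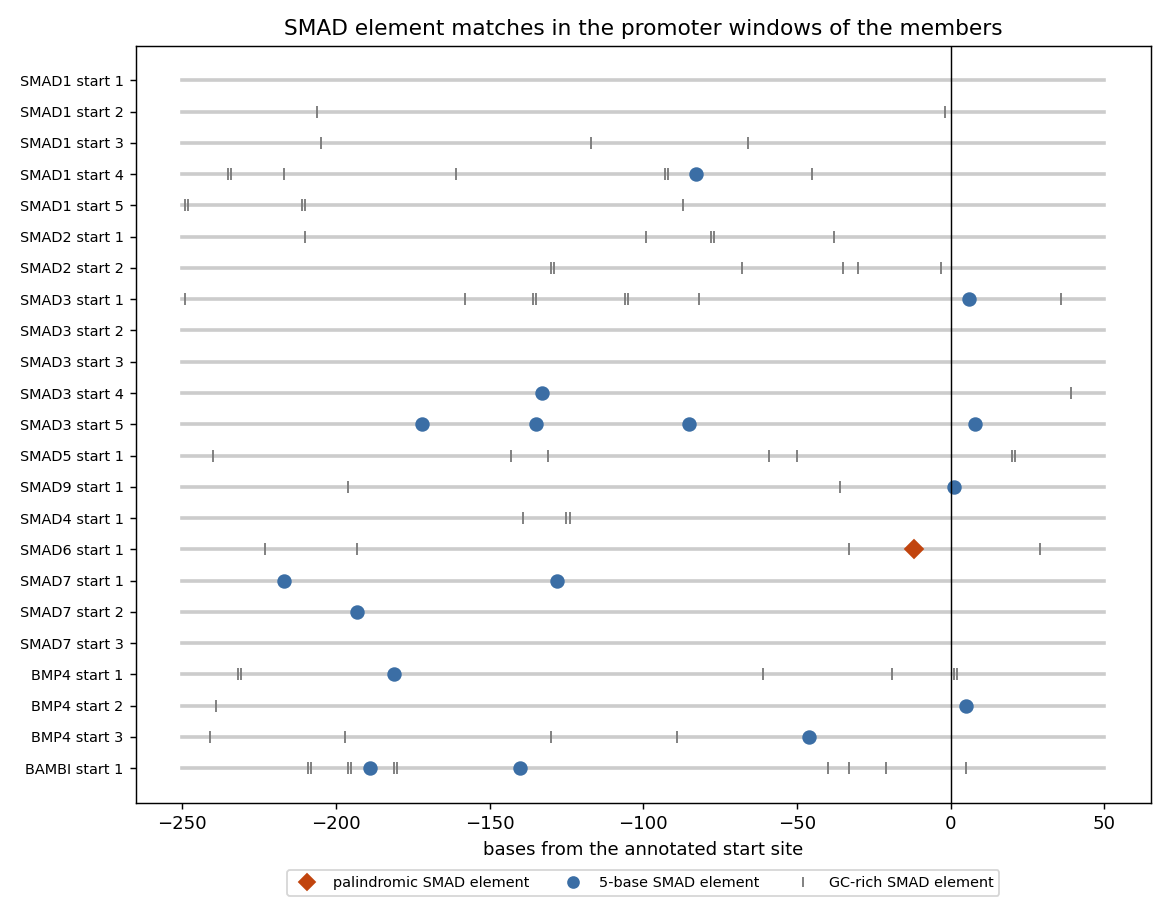
Matches to 3 SMAD DNA elements in the 23 promoter windows of the 10 genes, with bases from the annotated start site on the horizontal axis and 1 line per start. The single palindromic element (diamond) lies just before the start of SMAD6, and the 3 windows of SMAD7 hold 5-base elements (circles) or none, with no GC-rich element (ticks).

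Correlations over all 31135 probe sets were 0.993 to 0.994 between arrays of 1 group and 0.988 to 0.990 between arrays of different groups. The targeted gene, GLDC, had levels of 5.98, 5.65 and 5.93 in shGLDC99 arrays, against 7.85, 7.90 and 7.81 in shGFP arrays, with no overlap. Among 15 measured markers of sympathetic neuroblastoma, 11 reached the median gene level (5.09), GATA3, HAND2 and CHGA among them, while STMN2 lay far below it. The 17 measured markers of Schwann cells, endothelium, leukocytes and epithelium gave 0 changed genes by limma at an adjusted p under 0.05 (3 at an unadjusted p under 0.05), and 16 of the 17 lay below the median gene level. Their mean level per list was 3.57 to 3.91 in shGLDC99 arrays and 3.53 to 4.02 in shGFP arrays. Of 8 measured fibroblast and mesenchymal markers 1 rose (LUM) and 2 fell (FN1 and VIM), or 37.5%, beside 8.52% of all genes. LUM lay below the median gene level, and a second, dimmer probe set of VIM differed by -0.05, against -0.37. The mean level of that list was 5.12 to 5.17 in shGLDC99 arrays and 5.30 to 5.36 in shGFP arrays. This lower mean rests largely on FN1, which differed by -1.43. The list median was -0.03, with 3 genes higher and 5 lower. Whether FN1 moved with the SMAD genes for a shared reason was not tested.

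The inhibitory SMADs both fell. The level of SMAD6, which preferentially blocks BMP signalling, was 6.13, 6.07 and 5.95 on the log2 scale in shGLDC99 arrays a, b and c, against 6.98, 7.08 and 6.98 in shGFP arrays a, b and c. The groups did not overlap, and the gap between the highest shGLDC99 and the lowest shGFP array was 0.85. The mean level was 6.05 ± 0.0924 in shGLDC99 cells and 7.01 ± 0.0573 in shGFP cells (SD, n = 3 each). The log2 difference was -0.96 ± 0.0744 (SE), with a 95% interval of -1.14 to -0.79, or 1.95-fold lower (limma adjusted p = 0.00246). It ranked 33rd among the falls of all 14779 genes. With any 1 array left out, the difference was -1.0006 to -0.9107 and the limma adjusted p 0.0121 to 0.0175. The platform annotation ties this probe set to a non-coding transcript of SMAD6, so coding and non-coding transcripts of the gene cannot be told apart.

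SMAD7, which blocks both TGF-beta and BMP receptors and recruits SMURF ubiquitin ligases to them, had levels of 5.546, 5.703 and 5.579 in shGLDC99 arrays, against 6.004, 5.903 and 6.251 in shGFP arrays. All 3 shGLDC99 arrays lay below all 3 shGFP arrays, with the shGFP arrays more widely spread. The mean level was 5.61 ± 0.0823 in shGLDC99 cells and 6.05 ± 0.179 in shGFP cells (SD, n = 3 each). The log2 difference was -0.44 ± 0.104 (SE), with a 95% interval of -0.69 to -0.20 (limma adjusted p = 0.0495). The call did not survive the loss of any 1 of the 6 arrays (shGLDC99 a, b or c, or shGFP a, b or c). The difference was then -0.52 to -0.34, with a limma adjusted p of 0.0632 to 0.135. Adjusting over all 31135 probe sets also ended it (limma adjusted p = 0.0732).

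The fall of SMAD6 was set against that of SMAD7 within arrays. The log2 value of SMAD6 minus SMAD7 was 0.58, 0.37 and 0.37 in shGLDC99 arrays, against 0.97, 1.17 and 0.73 in shGFP arrays. The groups did not overlap, and the ratio of the 2 probe sets was 1.43-fold lower in shGLDC99 cells (exact two-sided permutation p = 0.1 over 20 groupings, the smallest that 3 against 3 arrays allow). This was 1 of 5 pairs of genes compared in this way, all chosen after their values were seen. Each of the 5 gave the same permutation p. The ratio of SMAD1 to SMAD9 moved more, 1.61-fold higher in shGLDC99 cells, and the remaining pairs moved 1.23- to 1.32-fold.

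**Figure D2:**
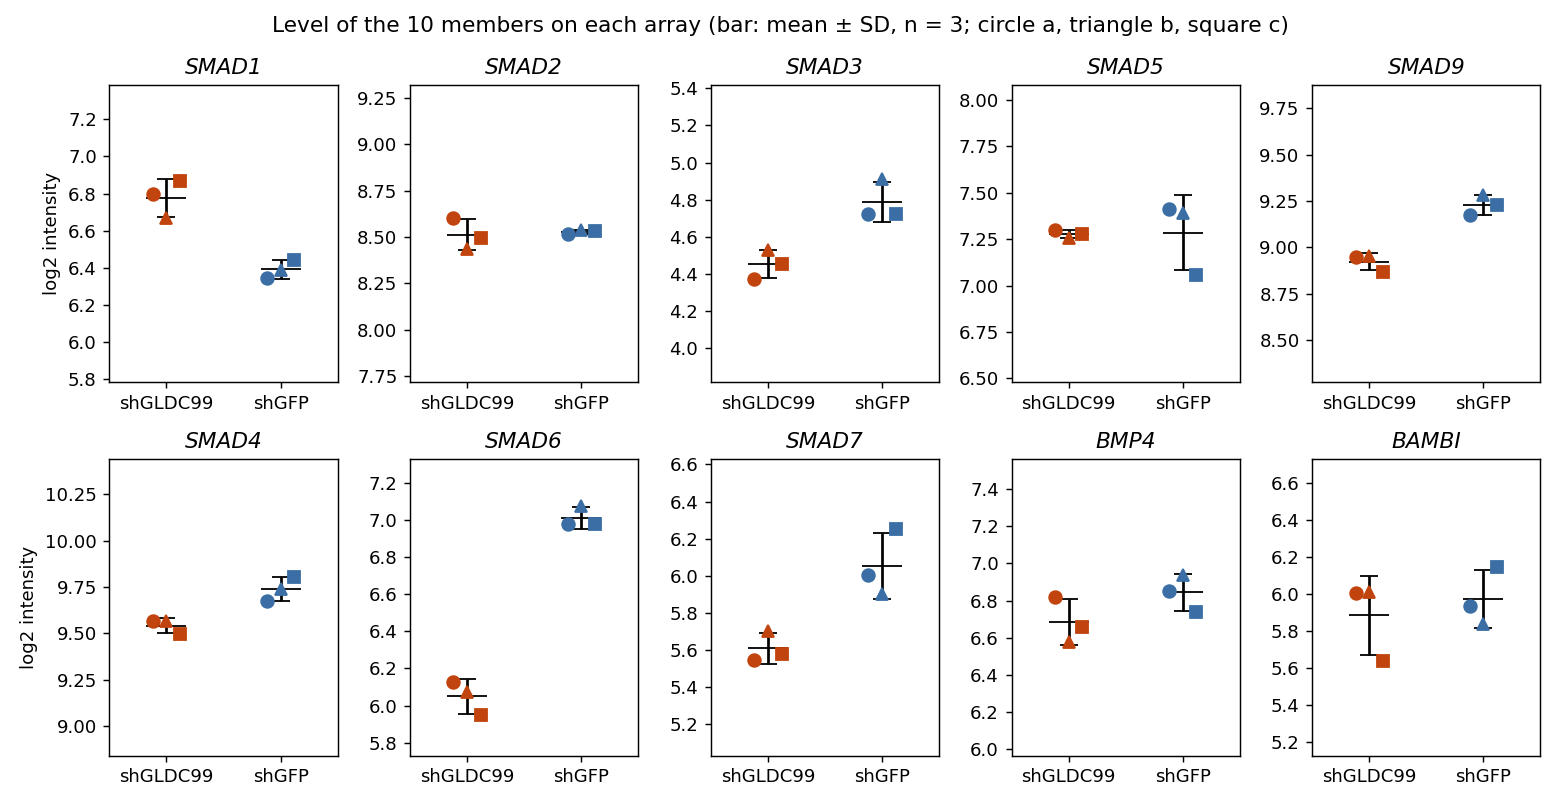
Level of each of the 10 genes (log2 intensity) on the 3 shGLDC99 arrays and the 3 shGFP arrays, with the mean and SD as bars; every panel spans 1.6 log2 units. SMAD6 shows the widest gap between the groups, 0.85, while SMAD2, SMAD5, BMP4 and BAMBI overlap.

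Of the 3 receptor-regulated SMADs of the BMP branch, 1 rose, 1 fell and 1 did not pass the test. SMAD1 had levels of 6.80, 6.67 and 6.87 in shGLDC99 arrays, against 6.34, 6.39 and 6.44 in shGFP arrays. It was the 1 gene of the 10 that was higher in shGLDC99 cells, with every shGLDC99 array above every shGFP array. Its log2 difference was 0.39 ± 0.0760 (SE), with a 95% interval of 0.21 to 0.57 (limma adjusted p = 0.0287). Without shGLDC99 array b the limma adjusted p was 0.0460. Leaving out shGLDC99 a or c, or shGFP a, b or c, gave 0.34 to 0.41 with a limma adjusted p of 0.0739 to 0.0895, so the call was lost in 5 of 6 such fits.

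SMAD9, also called SMAD8, moved the other way. Its levels were 8.95, 8.95 and 8.87 in shGLDC99 arrays, against 9.18, 9.28 and 9.23 in shGFP arrays. The groups did not overlap, and the difference was -0.30 ± 0.0647 (SE), with a 95% interval of -0.46 to -0.15 (limma adjusted p = 0.0366). With any 1 of the 6 arrays left out (shGLDC99 a, b or c, or shGFP a, b or c) it was -0.33 to -0.28, and the limma adjusted p was 0.0773 to 0.110, no longer past the threshold. The adjustment over all 31135 probe sets ended the call too (limma adjusted p = 0.0668).

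SMAD5 had levels of 7.30, 7.26 and 7.28 in shGLDC99 arrays, against 7.41, 7.39 and 7.06 in shGFP arrays. The groups overlapped, with shGFP array c lowest, and the difference was -0.01 with a 95% interval of -0.26 to 0.24 (limma adjusted p = 0.971).

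In the TGF-beta and activin branch, SMAD2 did not pass the test. Its levels were 8.601, 8.436 and 8.496 in shGLDC99 arrays, against 8.516, 8.537 and 8.530 in shGFP arrays, so the shGFP values lay inside the shGLDC99 range. The difference was -0.02, with a 95% interval of -0.18 to 0.15 (limma adjusted p = 0.915).

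SMAD3 had levels of 4.37, 4.53 and 4.45 in shGLDC99 arrays, against 4.72, 4.91 and 4.72 in shGFP arrays. The groups did not overlap, but the difference of -0.33 ± 0.0813 (SE) did not pass the threshold (limma adjusted p = 0.0533). Its level lay below the median gene level of 5.09 and is not shown to exceed background, so the size of the difference is uncertain. It passed after quantile normalization again (limma adjusted p = 0.0483), after centring the arrays (0.0485) and without the dimmest 40% of genes (0.0169). These were 3 of 8 alternatives with all 6 arrays. With 1 array left out, 0 of 6 fits passed (limma adjusted p = 0.0937 to 0.1395).

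SMAD4, the partner of all receptor-regulated SMADs, had levels of 9.57, 9.57 and 9.50 in shGLDC99 arrays, against 9.68, 9.74 and 9.81 in shGFP arrays. The groups did not overlap, with a gap of 0.11. The difference was -0.20 ± 0.0661 (SE), with a 95% interval of -0.36 to -0.04, and did not pass the threshold after adjustment (limma adjusted p = 0.119). It passed without the dimmest 40% of genes (limma adjusted p = 0.0431) and with a prior variance that followed intensity (0.00512). These were 2 of 8 alternatives with all 6 arrays. With 1 array left out, 0 of 6 fits passed (limma adjusted p = 0.1475 to 0.2793).

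BMP4, a secreted ligand that signals through SMAD1, SMAD5 and SMAD9, had levels of 6.82, 6.58 and 6.66 in shGLDC99 arrays, against 6.85, 6.94 and 6.74 in shGFP arrays. The highest shGLDC99 array lay above the lowest shGFP array. The difference was -0.16, with a 95% interval of -0.38 to 0.06 (limma adjusted p = 0.348). BAMBI, a membrane protein that resembles a type I receptor but lacks its kinase, had levels of 6.003, 6.013 and 5.637 in shGLDC99 arrays, against 5.936, 5.840 and 6.147 in shGFP arrays. The groups overlapped, with shGLDC99 array c lowest, and the difference was -0.09 with a 95% interval of -0.40 to 0.22 (limma adjusted p = 0.733).

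**Figure D3:**
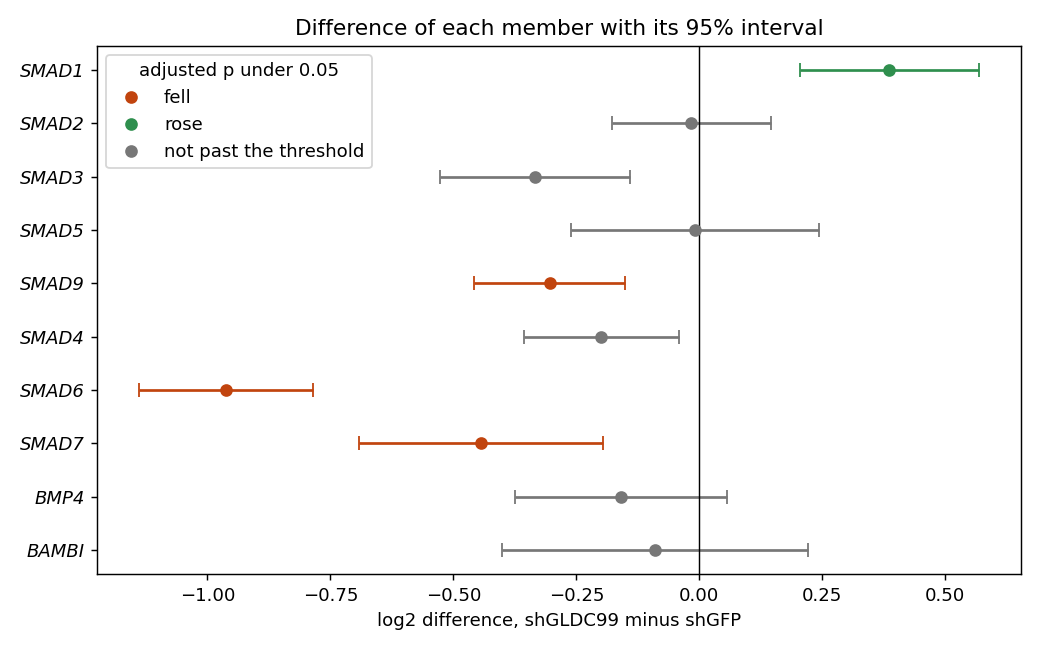
Log2 difference of each gene, shGLDC99 minus shGFP, with its 95% interval from the limma fit (n = 3 each). SMAD1 is the 1 gene whose interval lies above 0, the interval of SMAD6, from -1.14 to -0.79, does not meet that of SMAD7, and those of SMAD2, SMAD5, BMP4 and BAMBI contain 0.

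Counted over the 10 genes, 6 had groups without overlap (SMAD1, SMAD3, SMAD4, SMAD6, SMAD7 and SMAD9), 5 of them with shGLDC99 below. Over all genes the groups did not overlap for 30.8%, with shGLDC99 below for 16.3% and above for 14.5%. The median difference of the 10 genes was -0.18, beside -0.01 over all genes, and 9 of the 10 were lower. The exact two-sided permutation p was 0.1 for each of the 6 genes without overlap, and 0.2 to 1 for BMP4, SMAD2, BAMBI and SMAD5. SMAD6 was past the threshold in all 14 alternative fits. SMAD1 was past it in 8, and SMAD7 and SMAD9 were past it in 6.

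**Figure D4:**
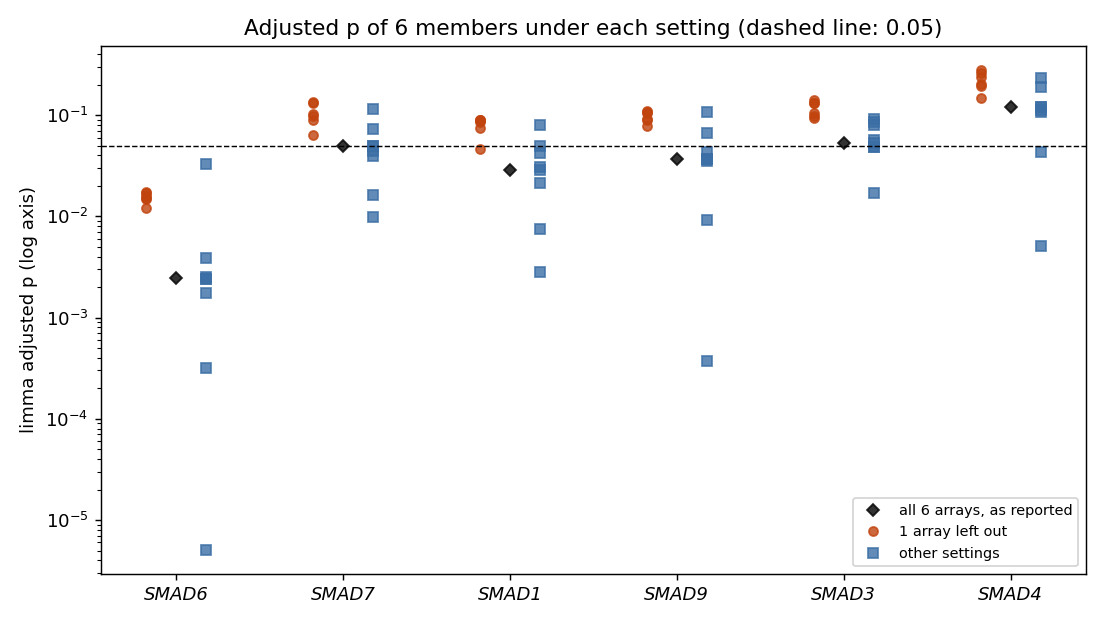
Limma adjusted p (log axis) of the 4 called genes and of SMAD3 and SMAD4 with all 6 arrays (diamond), with 1 array left out (circles) and under 8 other settings (squares); the dashed line marks 0.05. All points of SMAD6 lie below the line, while those of SMAD7, SMAD1 and SMAD9 lie on both sides of it.

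Beyond these 10 genes, 92 of 141 listed genes of the pathway were measured, of which 0 rose and 9 fell by limma (9.78%, beside 8.52% of all genes changed and 4.8% fallen). At an unadjusted p under 0.05, 5 (5.43%) were higher and 19 (20.7%) lower, beside 11.1% and 13.2% of all genes. Their median difference was -0.01, equal to that of all genes at this precision. The lists were written from general knowledge, with earlier results of these data known, so the counts are not independent evidence. Many of their genes lay at low levels, and 45 of the 92 were at or above the median gene level. The receptors of the pathway were mostly not among the named probe sets, with 4 of 19 measured and no TGFBR, BMPR or ACVR2 gene among them. The ID genes, widely used readouts of BMP signalling, were not analysed here.

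Of 24 ligand genes 1 fell and 0 rose (4.17%, beside 8.52% of all genes changed). GDF11, a ligand of the activin branch, had levels of 6.65, 6.70 and 6.46 in shGLDC99 arrays, against 6.96, 7.09 and 7.06 in shGFP arrays, and the difference was -0.44 ± 0.0846 (SE, limma adjusted p = 0.0275). BMP2, the closest relative of BMP4, differed by 0.34 with no overlap but did not pass the threshold (limma adjusted p = 0.0558). Among the 4 measured receptors and co-receptors 1 fell, NEO1, a receptor for netrins and repulsive guidance molecules that also acts as a BMP co-receptor. Its levels were 6.36, 6.33 and 6.44 in shGLDC99 arrays, against 6.79, 6.92 and 6.78 in shGFP arrays, with a difference of -0.45 ± 0.0711 (SE, limma adjusted p = 0.0146).

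Of 19 extracellular antagonists and binding proteins 2 fell and 0 rose (10.5%, beside 8.52% of all genes changed), with a list median of -0.13. LTBP1, which tethers latent TGF-beta in the matrix, had levels of 5.92, 5.97 and 6.06 in shGLDC99 arrays, against 6.65, 6.64 and 6.78 in shGFP arrays. The difference was -0.71 ± 0.0740 (SE), or 1.63-fold lower (limma adjusted p = 0.00558). FSTL1, a secreted follistatin-like protein that binds BMP4, fell by 0.49 (limma adjusted p = 0.0123), with no overlap between the groups. The classical BMP antagonists NOG and CHRD and the activin antagonist FST differed by -0.15, 0.08 and -0.35 and did not pass the threshold (limma adjusted p = 0.2679, 0.7003 and 0.1215). NOG, CHRD and FST all lay below the median gene level. TWSG1, of the same list and above that level, was higher by 0.27 with no overlap but did not pass (limma adjusted p = 0.0709). By sign alone 14 of the 19 were lower and 5 higher.

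Of 13 intracellular regulators and 12 nuclear partners 0 passed the threshold (3 and 4 at an unadjusted p under 0.05), with medians of -0.06 and -0.02. SMURF1, a ubiquitin ligase that degrades SMAD1 and SMAD5, had the smallest adjusted p of the regulators. Its difference was -0.22 ± 0.0631 (SE), with all shGLDC99 arrays below all shGFP arrays (limma adjusted p = 0.0851). Of the nuclear partners the smallest was that of SP1, a general activator that cooperates with SMADs (difference -0.26, limma adjusted p = 0.0930).

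Of 11 measured BMP target genes 4 fell and 0 rose, with a list median of -0.09. This was 36.4% changed, beside 8.52% of all genes changed and 4.8% fallen. By sign alone 7 were lower and 4 higher. HEY1 was higher by 0.28 with no overlap, at a low level, but did not pass (limma adjusted p = 0.115). TBX2, a T-box repressor, had levels of 6.22, 6.11 and 5.98 in shGLDC99 arrays, against 6.58, 6.75 and 6.80 in shGFP arrays, and fell by 0.60 (limma adjusted p = 0.0136). DLX5, a homeobox factor of bone and neural crest, fell by 0.58 (limma adjusted p = 0.0184), with levels below the median gene level in both groups. GATA2 and GATA3, zinc finger factors of the sympathetic lineage, fell by 0.56 and 0.48 (limma adjusted p = 0.0122 and 0.0161). Of the targets at or above the median gene level, TBX3, HAND2 and PHOX2A did not pass. They differed by 0.10, 0.08 and -0.21 (limma adjusted p = 0.4412, 0.4545 and 0.1658). GATA2 and GATA3 are also on the list of sympathetic neuroblastoma markers, as are HAND2 and PHOX2A. Of the 15 markers, 2 rose and 3 fell, GATA2 and GATA3 among the latter (33.3% changed, beside 8.52% of all genes). The third of those that fell was ISL1, a LIM homeobox factor of sympathetic neurons, with a difference of -1.09 (limma adjusted p = 0.00412), larger than that of SMAD6. A second, dimmer probe set of ISL1 gave -0.34. The 2 that rose were CHGB and GAP43, each by 0.41 (limma adjusted p = 0.0145 and 0.0283). Of the 15 markers 9 were higher and 6 lower, with a list median of 0.08. MSX1 and MSX2, homeobox targets of BMPs, differed by 0.01 and -0.08 (limma adjusted p = 0.982 and 0.913).

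Of 9 measured TGF-beta target genes 1 fell and 0 rose (11.1%, beside 8.52% of all genes changed), with a list median of 0.01. FN1, which encodes fibronectin, had levels of 6.08, 5.83 and 6.04 in shGLDC99 arrays, against 7.42, 7.29 and 7.53 in shGFP arrays. The difference was -1.43 ± 0.0973 (SE), or 2.69-fold lower (limma adjusted p = 0.00164). Other genes of the list did not pass the threshold, among them CCN2 (0.32), JUNB (-0.06), KLF10 (0.04) and SNAI1 (0.07). CCN2 lay below the median gene level.

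**Figure D5:**
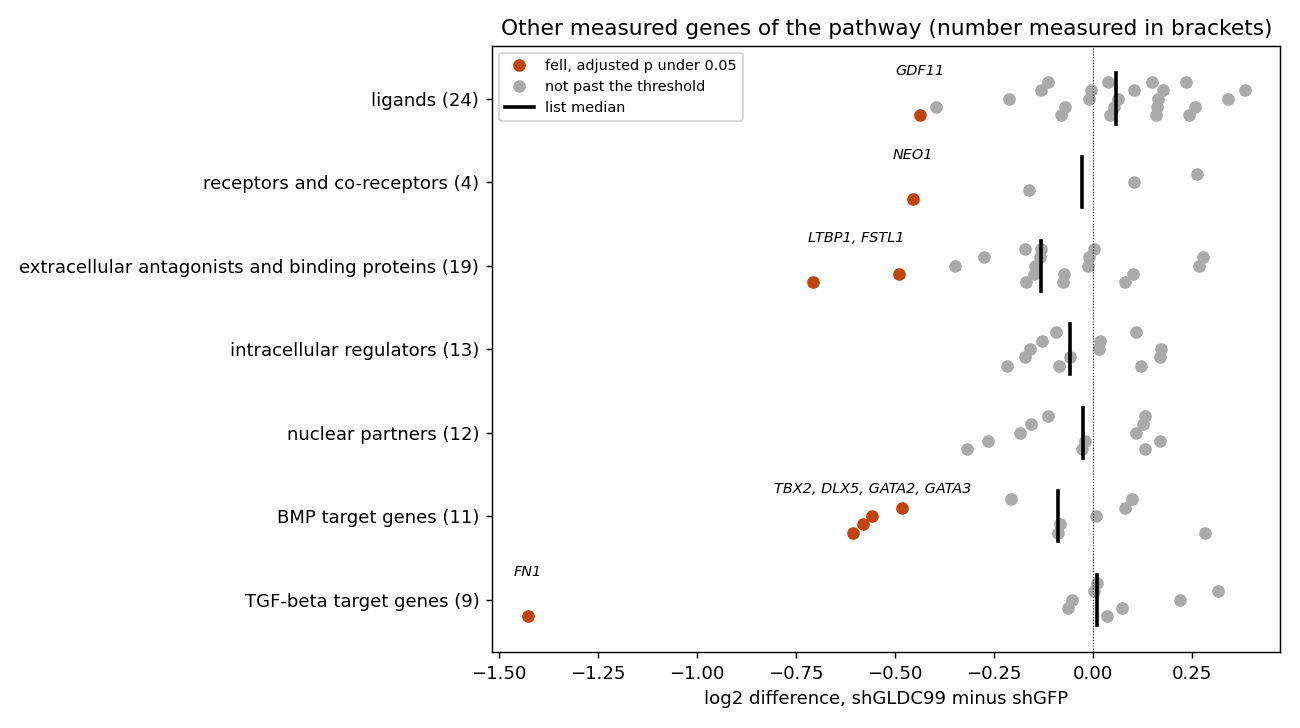
Log2 difference, shGLDC99 minus shGFP, of the other measured genes of the pathway by list (1 point per gene; black bar, list median; filled colour, fallen at a limma adjusted p under 0.05). The 9 named genes that fell lie between -1.43 and -0.44, and list medians lie between -0.13 and 0.06.

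The 5 genes whose levels over the 6 arrays were most like those of SMAD6, among 7389 genes at or above the median gene level, were LIMS3, UHRF1, POU3F2, SOX4 and SNX5 (Pearson r of 0.998 to 0.999). UHRF1, which maintains DNA methylation, had a mean level of 6.81 in shGLDC99 cells and 7.62 in shGFP cells, a difference of -0.81. POU3F2 and SOX4, factors of neural progenitors, differed by -0.38 and -0.37. LIMS3 has near-identical relatives, so its probe set is uncertain. The 5 most opposed were CYLD, RIMS1, NDFIP1, SESN3 and ZNF460 (r of -0.999 to -0.998). NDFIP1, an adaptor of the NEDD4 family of ubiquitin ligases, had a mean level of 6.73 in shGLDC99 cells and 5.89 in shGFP cells. With 6 arrays in 2 groups such values mostly express the group difference, and 516 genes reached r = 0.95 or more with SMAD6.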

How the data were processed

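The authors deposited 1 value per probe set and array, read here as log2 intensity. No source gives the log base; values reach 13.3, above the natural log of the top of a 16-bit scale (11.1), so log2 is inferred and every fold rests on it. Partek was used, per the submitters' processing notes; its version, the background correction, normalization and genome build were not given in sources used here. Array medians were 4.28 to 4.33, no further normalization was applied, and the number of arrays limits the precision.

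Of 31135 probe sets 15098 had 1 gene symbol in the platform annotation, 0 had several and 16037 had none. All symbols matched the RefSeq gene list by Entrez ID (0 updated), giving 14779 genes, each at its brightest probe set. Differences were fitted with limma 3.58.1 in R 4.3.3 (lmFit, eBayes, no covariates) over all genes with Benjamini-Hochberg adjustment, and a gene rose or fell where its adjusted p was under 0.05. The model was tested on simulated data in which 200 of 14779 genes were set to change. It recovered 40.4% of set changes of 0.5 and 84.6% of set changes of 1. Of its 126 calls there, 5 were false. A gene that did not pass may therefore still have changed. In the data 1259 genes were called, so the simulated rates may not carry over. Further genes named were GLDC, up to 4 called genes per list (or that with the smallest adjusted p), and the 5 most and least like SMAD6. BMP2, NOG, CHRD, FST, TWSG1, HEY1, TBX3, HAND2, PHOX2A, MSX1, MSX2, CCN2, JUNB, KLF10, SNAI1, ISL1, the marker genes and the chromosomal neighbours were picked with their values in view. The 10 genes and all lists were chosen with earlier results of these data known. The alternatives were quantile normalization again, centring, a filter on the dimmest 40% of genes, averaged probe sets, the replicate letter as a block, a prior variance that followed intensity, array weights, all probe sets, and each array left out. Data were read with data.table (version 1.17.8) and pandas 2.3.3, and plots drawn with matplotlib 3.10.9.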

Additional observations from a re-analysis of the deposited data

How the results depend on the processing

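The direction of SMAD1, SMAD3, SMAD4, SMAD6, SMAD7, SMAD9 and BMP4 was the same in all 14 alternative fits, and only SMAD6 stayed past the threshold in every one. SMAD2, SMAD5 and BAMBI, past the threshold in no fit, changed sign in at least 1. Of the 10 genes, 4 passed with all arrays, 2 when all probe sets were tested (SMAD1 and SMAD6) and 1 with the replicate block (SMAD6, limma adjusted p = 0.0332). With 1 array left out, 1 to 2 of the 10 genes, 2 to 7 other pathway genes (9 with all arrays) and 461 to 546 of all genes (1259 with all arrays) passed. Fewer arrays enter those fits. With the replicate block the counts were 2 other pathway genes and 229 of all genes. Arrays of the same letter did not deviate together (r of -0.01, 0.02 and -0.00 for a, b and c), so the letters are not shown to pair the samples. Without the dimmest 40% of genes, 6 of the 10 genes, 14 other pathway genes (2 risen, 12 fallen) and 2221 of the genes kept passed. With a prior variance that followed intensity, 5 of the 10, 17 other pathway genes (3 risen, 14 fallen) and 2438 of all genes passed. The first tests fewer genes, and the cause of the second was not tested. Quantile normalization again, centring, averaging probe sets and array weights left 4 to 5 of the 10 genes past the threshold. The groups of 3 arrays were too small for a check of single outlying samples.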

Other observations

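The measured genes next to the 4 called genes on the chromosome, in the RefSeq order, were set beside them. Around SMAD9, the nearest measured gene on each side fell as well. RFXAP, a subunit of the factor that activates MHC class II genes, had a mean level of 6.13 in shGLDC99 cells and 6.58 in shGFP cells, a difference of -0.45 ± 0.0789 (SE, limma adjusted p = 0.0213). EXOSC8, a subunit of the RNA exosome, had a mean level of 7.36 in shGLDC99 cells and 7.80 in shGFP cells, a difference of -0.44 ± 0.0612 (SE, limma adjusted p = 0.0102). SERTM1, the next gene beyond RFXAP, differed by -0.29 (limma adjusted p = 0.120), with no overlap between the groups. LINC00547, the next beyond EXOSC8, differed by -0.01 (limma adjusted p = 0.978), with overlap. LINC00547 lay far below the median gene level, at 1.58 in shGLDC99 and 1.59 in shGFP cells, so its difference says little.

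Around SMAD1, OTUD4, a deubiquitinase, rose by 0.50 ± 0.0710 (SE, limma adjusted p = 0.0112), while MMAA, on the other side, differed by -0.07 (limma adjusted p = 0.752). Beyond them, ANAPC10 and C4orf51 differed by 0.07 and -0.06 (limma adjusted p = 0.659 and 0.880), and C4orf51 lay far below the median gene level. Next to SMAD6 lie LCTL, far below the median gene level, and SMAD3, neither past the threshold. Past LCTL and SMAD3, MAP2K1 and AAGAB differed by -0.09 and 0.21 (limma adjusted p = 0.426 and 0.221). CTIF and DYM, on either side of SMAD7, differed by 0.06 and -0.03 (limma adjusted p = 0.708 and 0.801). Beyond them, ZBTB7C differed by 0.04 (limma adjusted p = 0.920), and the probe set of MIR4744 by -0.47, with all shGLDC99 arrays below all shGFP arrays but not past the threshold (limma adjusted p = 0.0656). Both lay far below the median gene level.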
